A study of Mus musculus with 8 samples.

Results

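Amino acid transporters were examined in germ cells of fetal mice with a conditional knockout (CKO) of Snf5, the gene of SNF5. The genes were taken by name from the solute carrier (SLC) families 1, 3, 6, 7, 36, 38 and 43. This choice was made with earlier results of these data known. Names that ended in a number were kept, and those with a further letter, such as Slc6a20a, were left out. This gave 59 genes of 23694 distinct names in the female table and 23409 in the male table. Germ cells were purified from embryos at embryonic day 15.5 by the Oct4-EGFP transgene, a green fluorescent reporter driven by the Oct4 promoter. Snf5 CKO embryos carried Snf5fx/Δ with TNAP-Cre, in which Cre is knocked into Alpl and recombines the floxed Snf5 allele in primordial germ cells. The study reported that recombination was incomplete and that some mutant germ cells stayed positive for SNF5, so that the mutant libraries are mixtures. Control embryos were a mixture of Snf5fx/Δ, Snf5fx/+, and embryos with both Snf5fx/+ and TNAP-Cre, so that some controls also carried Cre or a deleted Snf5 allele. The strain was labelled C57BL/6, whereas the study's methods describe a mixed background. Controls and mutants of each sex made 4 groups of 2 libraries each, described as biological duplicates, most of them from pooled embryos.

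Amino acids cross the plasma membrane and the membranes of organelles through carriers that differ in substrate and in driving force. SLC7 light subunits exchange amino acids and need a heavy subunit, SLC3A1 or SLC3A2, to reach the cell surface. SLC1 and SLC38 proteins carry glutamate, alanine, serine and glutamine, most of them with sodium, and the import of glutamine and leucine feeds the nutrient-sensing kinase complex mTORC1. At this stage control female germ cells are in meiotic prophase and control male germ cells have stopped dividing, and SNF5 belongs to the core of SWI/SNF, a complex that remodels chromatin.

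Promoter windows, from 250 bases before to 50 bases after an annotated start, were found in RefSeq (GRCm38.p6) for 41 of the 59 genes. The 5 windows below belong to genes on which the results turn: Slc1a4, which rose in females, Slc7a7, which rose in both sexes, Slc7a6, which fell in females, Slc38a9, which fell in both sexes, and Slc38a4, which moved in opposite directions. They lie at chr11:20332664-20332963 on the minus strand (Slc1a4), chr14:54417653-54417952 on the minus strand (Slc7a7), chr8:106168604-106168903 on the plus strand (Slc7a6), chr13:112660516-112660815 on the plus strand (Slc38a9) and chr15:97055907-97056206 on the minus strand (Slc38a4). Each is printed 5′ to 3′ along the gene, and capitals mark matches to the motifs searched.

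Slc1a4: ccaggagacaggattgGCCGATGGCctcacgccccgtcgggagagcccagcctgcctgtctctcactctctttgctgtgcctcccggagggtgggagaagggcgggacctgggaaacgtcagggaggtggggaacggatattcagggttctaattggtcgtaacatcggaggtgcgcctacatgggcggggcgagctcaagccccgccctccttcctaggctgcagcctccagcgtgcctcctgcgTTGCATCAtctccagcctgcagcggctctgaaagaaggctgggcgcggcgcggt

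Slc7a7: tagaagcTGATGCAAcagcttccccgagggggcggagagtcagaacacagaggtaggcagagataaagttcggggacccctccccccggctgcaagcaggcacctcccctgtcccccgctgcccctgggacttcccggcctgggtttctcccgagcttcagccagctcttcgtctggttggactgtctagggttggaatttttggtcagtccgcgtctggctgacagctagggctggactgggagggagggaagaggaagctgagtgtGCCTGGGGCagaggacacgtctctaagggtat

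Slc7a6: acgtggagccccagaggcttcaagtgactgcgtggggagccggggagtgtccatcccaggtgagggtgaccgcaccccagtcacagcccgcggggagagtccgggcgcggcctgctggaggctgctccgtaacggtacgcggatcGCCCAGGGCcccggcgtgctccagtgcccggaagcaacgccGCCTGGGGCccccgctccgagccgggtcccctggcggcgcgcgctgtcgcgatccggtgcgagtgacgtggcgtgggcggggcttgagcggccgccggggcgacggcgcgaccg

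Slc38a9: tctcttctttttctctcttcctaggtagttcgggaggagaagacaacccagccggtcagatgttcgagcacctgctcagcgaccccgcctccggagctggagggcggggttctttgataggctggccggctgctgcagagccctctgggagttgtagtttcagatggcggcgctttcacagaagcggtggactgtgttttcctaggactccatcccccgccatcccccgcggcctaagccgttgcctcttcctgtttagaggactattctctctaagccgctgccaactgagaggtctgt

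Slc38a4: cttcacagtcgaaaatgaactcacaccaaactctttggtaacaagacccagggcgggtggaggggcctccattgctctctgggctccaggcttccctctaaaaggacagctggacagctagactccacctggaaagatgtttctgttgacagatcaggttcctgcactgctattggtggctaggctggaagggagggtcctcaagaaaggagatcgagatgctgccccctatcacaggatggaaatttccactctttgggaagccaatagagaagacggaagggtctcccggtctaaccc

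Both strands of every window were searched for TGATGNAA, the core of the amino acid response element, CACGTG, an E-box, GCCNNNGGC, a TFAP2 motif, and ATGCNAAT, the octamer. TGATGNAA was present in 3 of the 41 windows (Slc1a4, Slc7a7 and Slc7a11) and in 3.97% of all 32817 RefSeq windows. In Slc1a4 the match, read on the opposite strand, began at position -4 from the start site, and in Slc7a7 it began at -243. CACGTG was present in 8 of the 41 windows and in 7.15% of all windows, GCCNNNGGC in 10 windows and 16.6%, and ATGCNAAT in 3 windows and 3.15%. The octamer match in Slc7a11 overlapped its TGATGNAA match. The Slc7a6 window held 2 GCCNNNGGC matches and 41 CpG dinucleotides, as many as the Slc38a2 window and more than the other windows, whereas the Slc38a4 window held 5 CpG and the Slc38a9 window 16. No searched motif was found in the Slc38a4 or Slc38a9 window. The male Slc38a4 locus ended at the start site of the window shown, and the female locus extended 4181 bases further upstream.

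Values were deposited as FPKM, fragments normalized to transcript length and to the number mapped in a library, in a table for each sex that was normalized on its own. Levels in females and males are therefore set side by side without a test between them. Log2 fold changes (Snf5 CKO minus control) are differences of mean log2(FPKM + 1), which understate the change of weakly expressed genes, and each was tested with limma across every gene whose 4 libraries averaged 1 FPKM or more. A gene was called when its Benjamini-Hochberg adjusted p was under 0.05 and its log2 fold change at least 1 in size. With 2 libraries against 2, an exact permutation test of a gene on its own cannot go below p = 0.333. The total number of fragments per library was unknown and the deposited confidence bounds were not used, so that the precision of the low values was not calculated.

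Smarcb1, the gene that encodes SNF5, was measured first. In females it was 23.4 and 22.3 FPKM in the controls and 4.24 and 2.47 FPKM in the mutants (log2 fold change -2.48, SE 0.24, limma adjusted p = 0.00027). In males it was 141 and 167 FPKM in the controls and 8.73 and 10.1 FPKM in the mutants (-3.90, SE 0.18, adjusted p = 0.0021). The groups did not overlap, and residual transcript remained in every Snf5 CKO library. The germ cell genes Ddx4 and Dazl stayed between 203 and 997 FPKM in the 8 libraries and were not called, while Tdrd6 was near 0. Pou5f1, the gene whose promoter drives the reporter used for sorting, was 8.63 and 16.7 FPKM in female controls and 295 and 333 FPKM in female mutants, and 399 to 648 FPKM in the male libraries. Over the 9 germ cell markers the summed level was 4359 to 4538 FPKM in female controls and 3169 to 3416 FPKM in female Snf5 CKO libraries (8 tested, 2 lower and 4 higher), against 5073 to 5530 FPKM and 4515 to 5071 FPKM in males (8 tested, 3 lower and 1 higher).

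Several markers of gonadal somatic cells also moved. Their counts and those of the germ cell markers are to be read against all tested genes. Of these, 17.3% were called higher and 21.6% lower in females, and 14.4% higher and 17.4% lower in males. Of 10 Sertoli cell markers, the 9 tested in males were all called higher, and their summed level was 134 to 190 FPKM in controls and 774 to 995 FPKM in mutants. In females 5 Sertoli markers were tested and 2 were higher (7.13 to 11.9 against 30.0 to 30.7 FPKM), with Fshr at 0 and the defining genes Sox9, Amh, Dhh and Cst9 at 0.153 FPKM or less. Pre-granulosa markers summed to 10.7 to 13.5 FPKM in female controls and 26.3 to 28.5 FPKM in female Snf5 CKO libraries (7 of 8 tested, 3 higher, 1 lower), and to 7.24 to 7.77 and 30.9 to 33.2 FPKM in males (3 tested, 2 higher). Leydig cell markers fell in males, with 3 of 5 called lower (58.2 to 85.7 against 15.1 to 19.2 FPKM), and 1 of 2 tested was higher in females (4.74 to 4.89 against 11.8 to 12.01 FPKM). Stromal markers were lower in males (3 of 4 tested, 10.9 to 22.1 against 2.93 to 4.69 FPKM), and 1 of 2 tested was lower in females (6.13 to 13.2 against 3.99 to 4.96 FPKM). Of the blood and endothelial markers, 1 of 4 tested was higher in females (26.9 to 100.02 against 31.0 to 86.5 FPKM), and 1 of 6 was lower and 1 higher in males (51.5 to 84.3 against 52.6 to 57.6 FPKM). Their summed levels overlapped in both sexes, and the male counts were near the shares of all tested genes. In such bulk samples fewer cells of a type and less RNA per cell cannot be told apart, and the part of these cells in the transporter results was not tested.

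Transporter genes moved in both directions in both sexes. In females 21 of the 59 genes passed the filter on low values, of which 8 were called higher and 4 lower, while 17.3% of all 11529 tested genes were called higher and 21.6% lower. In males 30 genes passed, of which 5 were higher and 5 lower, while 14.4% of all 12279 tested genes were called higher and 17.4% lower. Both male counts and the count of lower genes in females were near the shares of all tested genes. The male split was 7 higher and 4 lower with median-of-ratios rescaling, and 8 higher and 4 lower without male control replicate 1. The median log2 fold change of the genes that passed was 0.02 in females and 0.12 in males, against -0.13 and -0.07 over all tested genes. In total 32 of the 59 genes were tested in at least 1 sex, 19 in both, and 27 in neither. At an adjusted p under 0.05 at any fold, 8 female genes were higher and 6 lower, against a background of 26.9% and 34.6%, and 7 male genes were higher and 6 lower, against 21.0% and 25.3%.

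The filter kept a few genes on the strength of 1 group, and a call of such a gene is not independent of the filter. In females Slc7a7 and Slc7a9 reached a mean of 1 FPKM only in the Snf5 CKO group and Slc38a6 only in the controls. In males Slc1a3, Slc1a6, Slc7a1 and Slc7a3 reached it only in the Snf5 CKO group, and Slc6a12, Slc6a13, Slc7a4 and Slc38a9 only in the controls. Of these, the genes called were Slc7a7 and Slc7a9 in females, and Slc1a3, Slc7a3, Slc6a12, Slc6a13 and Slc38a9 in males. The groups did not overlap for 9 female genes that were higher and 8 that were lower in every mutant library (36.4% and 45.1% of all tested genes), and for 13 higher and 11 lower male genes (34.5% and 40.0%). Among the untested genes, which stayed at 1.81 FPKM or less, 9 of 38 were higher and 10 lower without overlap in females (12.5% and 16.6% of all untested genes), and 4 of 29 were higher and 14 lower in males (9.90% and 26.0%). Of the untested genes, 3 in females and 2 in males were listed at 0 in all 4 libraries, and the deposited status marked none of these estimates as failed.

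**Figure D1:**
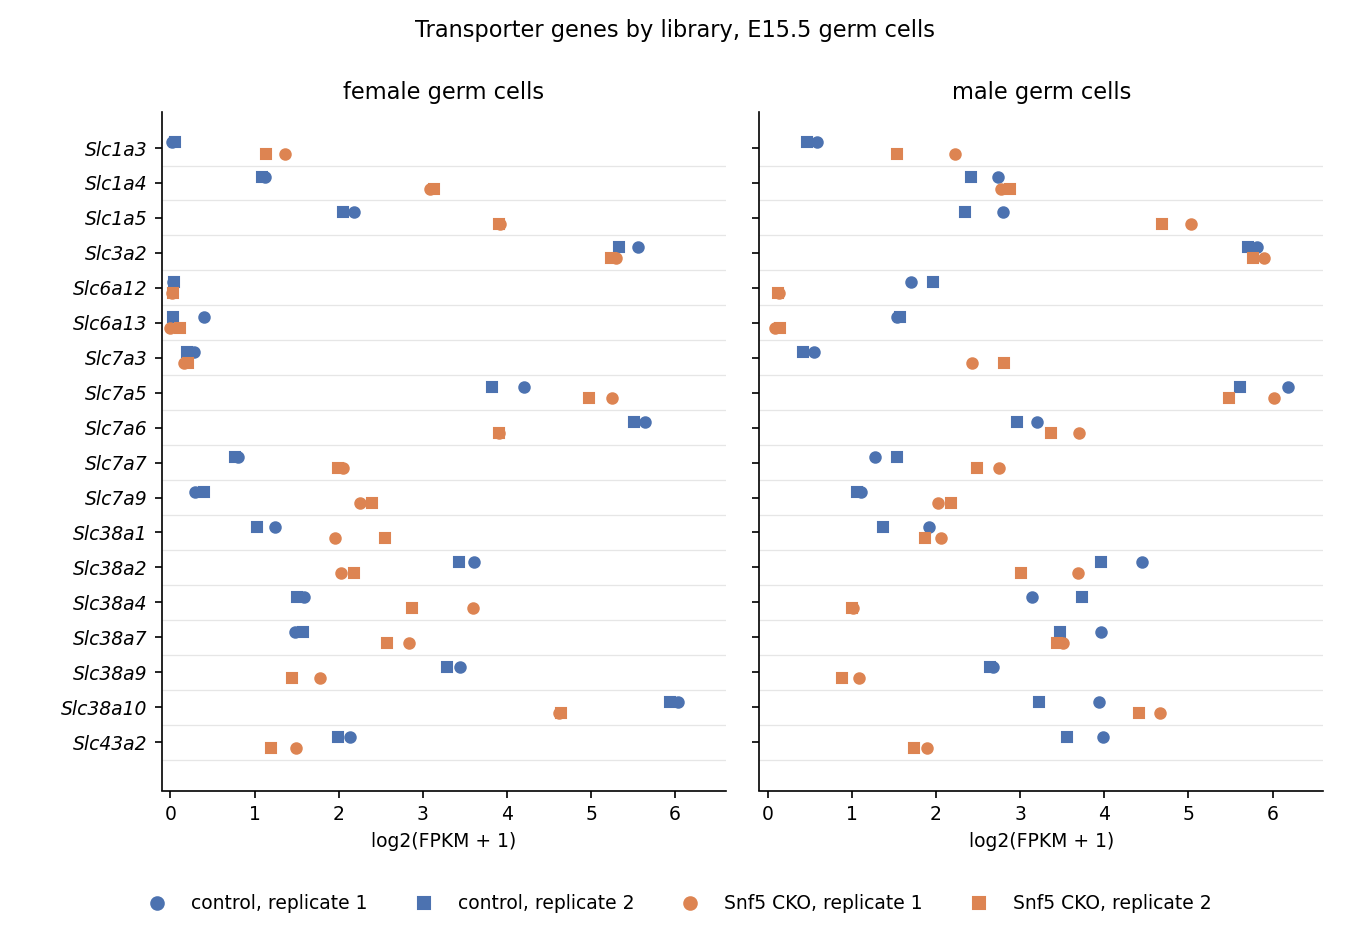
Expression of the 18 transporter genes named here in each library, as log2(FPKM + 1) on the horizontal axis, with females left and males right. Blue points are controls, orange points are Snf5 CKO, circles are replicate 1 and squares replicate 2. Slc1a5 is to the right of its controls in both panels, Slc38a9 to the left in both, and Slc38a4 lies to the right in females and to the left in males.

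The heavy subunit gene Slc3a2 was among the 3 most highly expressed of the 59 genes in every group. It was 46.0 and 39.2 FPKM in female controls and 38.2 and 36.9 FPKM in female Snf5 CKO libraries, and 55.4 and 51.3 FPKM against 58.6 and 53.6 FPKM in males. The female groups lay close together with the Snf5 CKO libraries just below the controls, and the male groups overlapped. Its log2 fold change was -0.18 in females (SE 0.17, limma adjusted p = 0.40) and 0.07 in males (SE 0.17, adjusted p = 0.75), and the male value turned to -0.12 when libraries were rescaled to a common sum over named loci. The other heavy subunit, Slc3a1, did not exceed 0.0784 FPKM in any library.

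The light subunits that pair with SLC3A2 changed places in females. Slc7a6 (y+LAT2, chromosome 8, 106168875 to 106198704 in mm10), which exchanges cationic for neutral amino acids, was 48.8 and 44.5 FPKM in female controls and 14.0 and 14.0 FPKM in the Snf5 CKO libraries. Both mutant libraries were far below both controls, and the mean fell by 70.1% (log2 fold change -1.67, SE 0.16, limma adjusted p = 0.00029). In males Slc7a6 was 8.19 and 6.77 FPKM in controls and 11.98 and 9.30 FPKM in Snf5 CKO libraries. The male mutants lay above the controls by less (0.45, SE 0.22, adjusted p = 0.15), a difference that was not called and that gave an adjusted p of 0.011 when the replicate number was fitted as a block.

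Slc7a5 (LAT1, chromosome 8, 121881146 to 121907686), the main carrier of leucine and other large neutral amino acids, was 17.4 and 13.2 FPKM in female controls and 37.1 and 30.5 FPKM in female Snf5 CKO libraries. Both mutant libraries were above both controls, 2.21-fold on average (log2 fold change 1.10, SE 0.20, limma adjusted p = 0.0035). The value lay close to the required fold and fell to 0.97 without female Snf5 CKO replicate 1 and to 0.91 without female control replicate 2, and without a filter on low values its adjusted p was 0.063. In males Slc7a5 was 71.9 and 47.9 FPKM in controls and 63.5 and 43.6 FPKM in Snf5 CKO libraries. The male groups overlapped, replicate 1 being the higher library in each (-0.15, SE 0.29, adjusted p = 0.69), and the sign of this small difference turned without male Snf5 CKO replicate 2 (0.11) or male control replicate 1 (0.13).

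FPKM is a level per transcript length, so that the partners of SLC3A2 (Slc7a5, Slc7a6, Slc7a7, Slc7a8, Slc7a10 and Slc7a11) could be compared within a library. In female controls Slc7a6 made up 72.02% and 75.4% of their summed FPKM and Slc7a5 made up 25.6% and 22.3%. In female Snf5 CKO libraries the order was the other way round, with 25.5% and 29.1% from Slc7a6 and 67.8% and 63.7% from Slc7a5. Male libraries were dominated by Slc7a5 in each group, at 86.8% and 83.4% in controls and 77.6% and 75.4% in Snf5 CKO libraries. The ratio of Slc7a5 to Slc7a6 was 0.356 and 0.296 in female controls against 2.66 and 2.19 in female mutants, and 8.77 and 7.08 in male controls against 5.30 and 4.69 in male mutants. The summed partners relative to Slc3a2 moved little, from 1.47 and 1.51 to 1.43 and 1.30 in females and from 1.49 and 1.12 to 1.40 and 1.08 in males. These ratios are given as descriptions without a test.

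**Figure D2:**
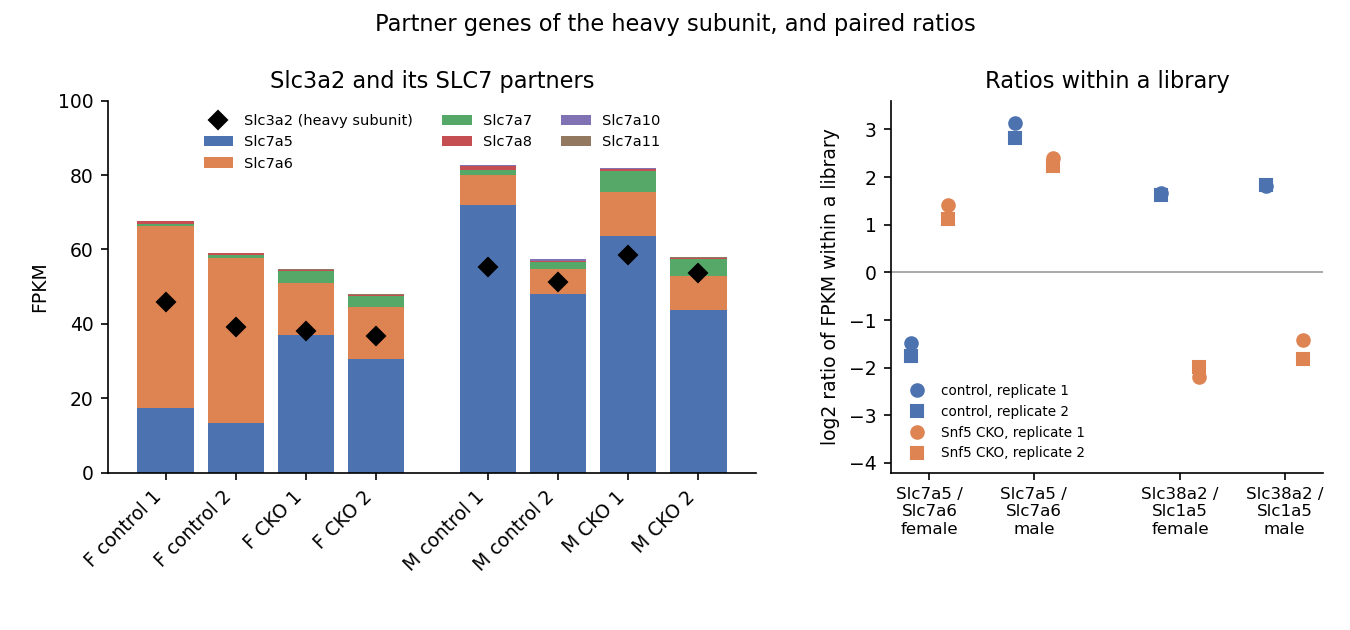
Left, stacked bars of the FPKM of the 6 SLC7 partner genes in each library (F, female; M, male), with Slc3a2 as black diamonds. Right, log2 of the ratios Slc7a5 to Slc7a6 and Slc38a2 to Slc1a5 within each library, blue for controls and orange for Snf5 CKO. The Slc7a6 part of the bar is the larger in female controls and the Slc7a5 part in the other 6 libraries, and the Slc38a2 to Slc1a5 ratio is above 1 in every control and below 1 in every Snf5 CKO library.

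Slc7a7 (y+LAT1, chromosome 14, ending at 54417702), another partner of SLC3A2 that exports cationic amino acids, was 0.745 and 0.709 FPKM in female controls and 3.14 and 2.97 FPKM in female Snf5 CKO libraries. Male controls had 1.41 and 1.89 FPKM, and male mutants 5.72 and 4.61 FPKM. Its mutant libraries were above the controls in both sexes, with log2 fold changes of 1.23 (SE 0.18, limma adjusted p = 0.0014) and 1.22 (SE 0.21, adjusted p = 0.0093). The locus overlaps Oxa1l, and the library kit does not mark strand, so that reads of the overlap could not be assigned to either gene. Without a filter on low values the male adjusted p was 0.057. With a pseudocount of 0.1 the female log2 fold change was 1.93. Only the Snf5 CKO group reached a mean of 1 FPKM in females, so the female call is not independent of the filter.

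Slc7a9 (chromosome 7), a light subunit that pairs with SLC3A1 in kidney and gut and takes up cystine and cationic amino acids, was 0.229 and 0.322 FPKM in female controls and 3.75 and 4.25 FPKM in female Snf5 CKO libraries. The mutants were 14.5-fold higher on average (log2 fold change 1.97, SE 0.19, limma adjusted p = 0.00026; 3.46 with a pseudocount of 0.1). Only the Snf5 CKO group reached a mean of 1 FPKM in females, so the female call is not independent of the filter. The male libraries gave 1.16 and 1.08 FPKM for controls and 3.05 and 3.51 FPKM for Snf5 CKO. The male groups were likewise apart, and the change was just past the required fold (1.01, SE 0.17, adjusted p = 0.0095). It dropped under that fold without male Snf5 CKO replicate 2 (0.93), without male control replicate 2 (0.99) or with libraries rescaled to a common sum (0.97). The male locus overlapped an unnamed locus.

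The remaining light subunits stayed low. Slc7a8, Slc7a10, Slc7a11, Slc7a12, Slc7a13 and Slc7a15 were untested in both sexes, with no female value above 0.779 FPKM and no male value above 0.964 FPKM. Slc7a12 and Slc7a13 were listed at 0 in all libraries. The cystine carrier Slc7a11, the promoter of which held 2 TGATGNAA matches, did not exceed 0.184 FPKM.

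Of the neutral amino acid carriers of the SLC1 family, Slc1a5 rose in both sexes and Slc1a4 in females. Slc1a5 (ASCT2, chromosome 7, ending at 16798274), which imports glutamine in exchange for other neutral amino acids, was 3.55 and 3.15 FPKM in female controls and 14.2 and 14.0 FPKM in female Snf5 CKO libraries. In males it was 5.92 and 4.08 FPKM in controls and 31.6 and 24.7 FPKM in Snf5 CKO libraries. Mutants stood well above controls in each sex, 4.21-fold in females (log2 fold change 1.80, SE 0.18, limma adjusted p = 0.00032) and 5.63-fold in males (2.29, SE 0.25, adjusted p = 0.0031). In male Snf5 CKO cells it was the third most highly expressed of the 59 genes and supplied 11.04% and 10.3% of their summed FPKM, against 2.12% and 1.78% in male controls.

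Slc1a4 (ASCT1, chromosome 11, 20302180 to 20332713), an exchanger of alanine, serine and cysteine, was 1.17 and 1.12 FPKM in female controls and 7.52 and 7.75 FPKM in female Snf5 CKO libraries. The female groups were far apart (6.65-fold, log2 fold change 2.01, SE 0.18, limma adjusted p = 0.00023). Male controls had 5.66 and 4.35 FPKM, and male mutants 5.86 and 6.38 FPKM. The male groups were adjacent without overlap (0.25, SE 0.21, adjusted p = 0.36). Male controls were at a level near that of the female mutants, a comparison across tables that was not tested.

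Slc1a3 (GLAST, chromosome 15, 8634124 to 8710807), a glutamate and aspartate carrier, was 0.500 and 0.382 FPKM in male controls and 3.68 and 1.89 FPKM in male Snf5 CKO libraries. Both mutants were above both controls, with Snf5 CKO replicate 1 the higher (6.32-fold, log2 fold change 1.35, SE 0.27, limma adjusted p = 0.015). The adjusted p was 0.092 without a filter on low values, and the log2 fold change was 2.35 with a pseudocount of 0.1. Slc1a3 reached a mean of 1 FPKM only in the male Snf5 CKO group among males, so its call is not independent of the filter. In females it was 0.0111 and 0.0354 FPKM in controls and 1.57 and 1.20 FPKM in Snf5 CKO libraries, the same order, below the level at which genes were tested. Some Sertoli and pre-granulosa markers were called higher in the same libraries of both sexes, by the values given above, and their part in the rise of Slc1a3 and Slc1a5 was not tested. The other glutamate carriers (Slc1a1, Slc1a2, Slc1a6 and Slc1a7) were not called, and Slc1a6 alone among them was tested, in males (log2 fold change 0.33, adjusted p = 0.25).

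In the SLC38 family 3 genes were higher and 3 lower of 7 tested in females, and 2 were lower and none higher of 9 tested in males, against 17.3% higher and 21.6% lower of all tested genes in females and 14.4% and 17.4% in males. Slc38a2 (SNAT2, chromosome 15, 96687391 to 96699751), a sodium-coupled importer of glutamine, alanine and serine that cells induce when amino acids run short, was 11.2 and 9.75 FPKM in female controls and 3.09 and 3.55 FPKM in female Snf5 CKO libraries. The female mutants were below the controls without overlap (log2 fold change -1.41, SE 0.19, limma adjusted p = 0.00098). The male libraries gave 20.9 and 14.6 FPKM for controls and 11.8 and 7.05 FPKM for Snf5 CKO. The male mutants were also below, but the replicates were further apart and the gene was not called (-0.86, SE 0.31, adjusted p = 0.075). The male value was past the threshold without male Snf5 CKO replicate 1 (-1.20) or male control replicate 2 (-1.11), and further from it without male Snf5 CKO replicate 2 (-0.53, adjusted p = 0.25) or male control replicate 1 (-0.62, adjusted p = 0.27). Its adjusted p was 0.00082 with the replicate number as a block, still under the required fold.

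The ratio of Slc38a2 to Slc1a5 was lower in every mutant than in every control of its sex, although the male difference in Slc38a2 was not called. It was 3.17 and 3.09 in female controls, 0.218 and 0.253 in female Snf5 CKO libraries, 3.53 and 3.58 in male controls and 0.374 and 0.285 in male mutants. Slc38a2 was thus the more abundant glutamine importer in the 4 controls and Slc1a5 in the 4 mutants, a description chosen after the values were seen.

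Slc38a1 (SNAT1), a closely related glutamine importer 44131 bases from Slc38a2 on chromosome 15, moved the other way in females. It was 1.37 and 1.04 FPKM in female controls and 2.87 and 4.86 FPKM in female Snf5 CKO libraries. Both mutants were higher, replicate 2 more so (log2 fold change 1.12, SE 0.25, limma adjusted p = 0.0080). The value fell to 0.82 without female Snf5 CKO replicate 2, and the adjusted p was 0.12 without a filter on low values. In males it was 2.77 and 1.59 FPKM in controls and 3.17 and 2.66 FPKM in Snf5 CKO libraries, groups that overlapped (0.32, SE 0.25, adjusted p = 0.33).

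Slc38a4 (SNAT4, chromosome 15, starting at 96994823), a carrier of neutral and cationic amino acids and an imprinted gene expressed from the paternal allele in mouse, was called in opposite directions. In females it was 1.996 and 1.84 FPKM in controls and 11.1 and 6.31 FPKM in Snf5 CKO libraries. The female mutants were above the controls (4.54-fold, log2 fold change 1.69, SE 0.27, limma adjusted p = 0.0019; adjusted p 0.071 without a filter on low values). Male controls had 7.82 and 12.3 FPKM, and male mutants 1.02 and 0.999 FPKM. The male mutants were far below, where the mean fell by 90.0% (-2.43, SE 0.26, adjusted p = 0.0030). It was the only one of the 19 genes tested in both sexes to be called in opposite directions, against 2.03% of all 10472 such genes.

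Slc38a9 (chromosome 13, 112660680 to 112738752 in the female table), a lysosomal arginine sensor that signals to mTORC1, was 9.88 and 8.73 FPKM in female controls and 2.43 and 1.73 FPKM in female Snf5 CKO libraries. The male libraries gave 5.41 and 5.24 FPKM for controls and 1.11 and 0.845 FPKM for Snf5 CKO. The mutants were below the controls by a wide margin in each sex (-1.75, SE 0.21, limma adjusted p = 0.00058 in females, and -1.68, SE 0.18, adjusted p = 0.0031 in males). Only the controls reached a mean of 1 FPKM in males, so the male call is not independent of the filter. No other transporter gene was called lower in both sexes, against 5.35% of all genes tested in both.

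Slc38a10 (chromosome 11, starting at 120103951), a member of less settled function, was the most highly expressed of the 59 genes in female controls. It was 64.3 and 60.3 FPKM in female controls and 23.6 and 24.1 FPKM in female Snf5 CKO libraries. The female mutants were clearly below (log2 fold change -1.35, SE 0.16, limma adjusted p = 0.00058), and the share of the summed FPKM of the 59 genes that it supplied went from 27.5% and 28.4% to 12.2% and 13.3%. In males it was 14.3 and 8.35 FPKM in controls and 24.4 and 20.3 FPKM in Snf5 CKO libraries. The male mutants were above the controls with an adjusted p of 0.047 but a log2 fold change of 0.96 (SE 0.29), just under the required fold. It was past that fold without male Snf5 CKO replicate 2 (1.09) or male control replicate 1 (1.31), and with median-of-ratios rescaling (1.11) or a pseudocount of 0.1 (1.02). The male log2 fold change was 0.60 without male control replicate 2 and 0.83 without male Snf5 CKO replicate 1. It no longer passed the adjusted p with a common sum over named loci (0.79, adjusted p = 0.22) or with no filter (adjusted p = 0.17). Nor did it pass with loci without a gene name included (adjusted p = 0.073) or with a mean of at least 5 FPKM (adjusted p = 0.052). Over all alternatives its adjusted p ranged from 0.0016 to 0.22.

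Slc38a7 (SNAT7, chromosome 8), which exports glutamine from lysosomes, was 1.79 and 1.99 FPKM in female controls and 6.15 and 4.94 FPKM in female Snf5 CKO libraries. The mutants were above the controls (2.93-fold, log2 fold change 1.17, SE 0.20, limma adjusted p = 0.0024). Male controls had 14.6 and 10.1 FPKM, and male mutants 10.4 and 9.84 FPKM, groups that overlapped (-0.25, SE 0.23, adjusted p = 0.42). Slc38a6 passed the adjusted p in females but not the fold (-0.64, adjusted p = 0.023), as did Slc38a5, a carrier of glutamine, serine and glycine, in males (0.95, adjusted p = 0.040). The other SLC38 genes were not called, and Slc38a3 was tested in males only (-0.48, adjusted p = 0.073).

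Among the cationic carriers, Slc7a3 (CAT3, X chromosome, starting at 101079215 in the male table), which imports arginine and lysine, was called in males. It was 0.457 and 0.335 FPKM in male controls and 4.37 and 6.01 FPKM in male Snf5 CKO libraries. Only the Snf5 CKO group reached a mean of 1 FPKM, so the call of Slc7a3 is not independent of the filter. Both mutants were far above the controls, 13.1-fold on average (log2 fold change 2.14, SE 0.21, limma adjusted p = 0.0027; 3.41 with a pseudocount of 0.1). In females it was 0.216 and 0.148 FPKM in controls and 0.121 and 0.159 FPKM in Snf5 CKO libraries, overlapping at a level under the filter. Sertoli cell markers were also higher in the male Snf5 CKO libraries, and their part in this rise was not tested. Slc7a4 passed the adjusted p in males without the fold (-0.64, adjusted p = 0.031), and Slc7a1, the general arginine carrier, was not called in males (0.21, adjusted p = 0.43) and stayed at or below 0.830 FPKM in females.

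In the SLC6 family, which carries GABA, glycine, taurine, creatine and monoamines with sodium and chloride, both calls were in males and downward. Only 4 of its genes were tested in males and 3 in females. Of all tested genes, 17.4% were called lower in males and 21.6% in females. Slc6a12 (BGT1, chromosome 6, 121343135 to 121365775), a betaine and GABA carrier, was 2.25 and 2.91 FPKM in male controls and 0.0929 and 0.0887 FPKM in male Snf5 CKO libraries. Slc6a13 (GAT2, chromosome 6, 121300296 to 121337718), a GABA and taurine carrier 5416 bases away, was 1.89 and 1.98 FPKM in male controls and 0.0631 and 0.103 FPKM in male Snf5 CKO libraries. Both genes were nearly absent from the mutants. They reached a mean of 1 FPKM only in the male controls, so their calls are not independent of the filter. The mean of Slc6a12 fell by 96.5% and that of Slc6a13 fell by 95.7%. Their log2 fold changes were -1.71 (SE 0.18, limma adjusted p = 0.0029) and -1.44 (SE 0.15, adjusted p = 0.0030), and -3.80 and -3.48 with a pseudocount of 0.1. In females neither exceeded 0.322 FPKM. Leydig cell and stromal markers also fell in the male Snf5 CKO libraries, and their part in the fall of Slc6a12 and Slc6a13 was not tested.

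Slc6a11 (GAT3), a GABA carrier, was 0.415 and 0.271 FPKM in male controls and 0.0717 and 0 FPKM in male mutants, the same order at a level under the filter. Slc6a11, Slc6a6 and Slc6a8 are named after their values were seen. Slc6a6, the taurine carrier, was the most highly expressed SLC6 gene in males, at 9.46 and 10.1 FPKM in controls and 13.1 and 12.03 FPKM in mutants, and it was not called (log2 fold change 0.33, limma adjusted p = 0.18). Slc6a8, the creatine carrier, was 0.177 and 0.194 FPKM in male controls and 1.13 and 1.81 FPKM in male mutants, apart but untested, and in females it lay between 1.78 and 2.18 FPKM (-0.01, adjusted p = 0.97).

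Of the SLC43 facilitators, Slc43a2 (LAT4, chromosome 11), a uniporter of branched-chain amino acids, methionine and phenylalanine, was called in males. It was 14.8 and 10.7 FPKM in male controls and 2.71 and 2.33 FPKM in male Snf5 CKO libraries. The mutants were well below (the mean fell by 80.3%, log2 fold change -1.95, SE 0.23, limma adjusted p = 0.0037). In females it was 3.397 and 2.96 FPKM in controls and 1.81 and 1.28 FPKM in Snf5 CKO libraries, the same order with an adjusted p of 0.020 but a log2 fold change of -0.72 (SE 0.20), and -1.01 with a pseudocount of 0.1. The locus overlaps Mir3971, and the male locus also overlapped an unnamed locus. Slc43a1, a related uniporter, was not called (-0.11, adjusted p = 0.64 in females, and -0.34, adjusted p = 0.23 in males). Of the 4 SLC36 proton-coupled carriers, some of which export amino acids from lysosomes, Slc36a4 was tested, and it was not called (0.02, adjusted p = 0.94 in females, and -0.82, adjusted p = 0.054 in males).

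Set side by side, 3 genes were called higher in both sexes (Slc1a5, Slc7a7 and Slc7a9) and 1 lower in both (Slc38a9), of 19 tested in both, against 6.58% and 5.35% of all genes tested in both. Slc7a7 and Slc7a9 in females and Slc38a9 in males reached a mean of 1 FPKM only in their higher group. These calls are therefore not independent of the filter. A call in 1 sex alone does not show a difference between the sexes, and none was tested because the tables were normalized separately. In 5 of the 19 genes (Slc6a9, Slc7a6, Slc38a4, Slc38a6 and Slc38a10) the groups did not overlap in either sex and had opposite orders. This count was near the 20.7% of all genes tested in both. The summed FPKM of the 59 genes was 233 and 213 in female controls, 193 and 181 in female Snf5 CKO libraries, 280 and 229 in male controls and 286 and 241 in male mutants. The sums were thus lower in both female mutants and overlapped in males.

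**Figure D3:**
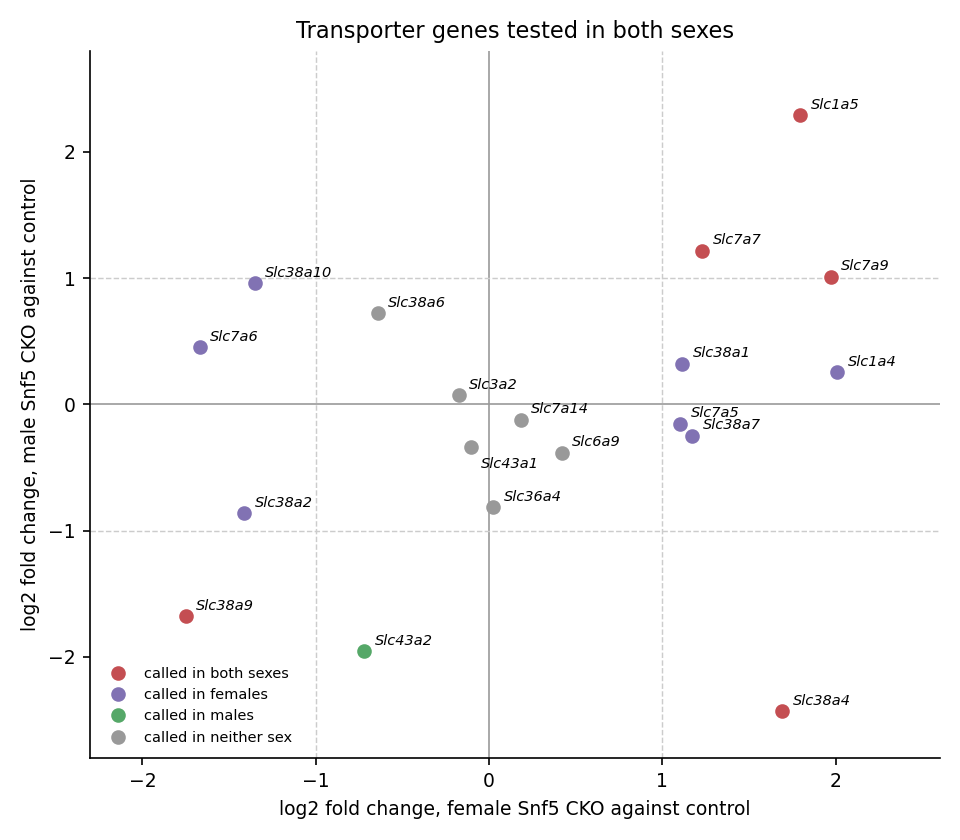
Log2 fold changes of the 19 genes tested in both sexes, females on the horizontal and males on the vertical axis, coloured by the sex in which a gene was called, with dashed lines at the required fold of 1. Slc1a5, Slc7a7 and Slc7a9 lie at the upper right, Slc38a9 at the lower left, and Slc38a4 at the lower right (1.69 and -2.43).

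Genes of amino acid metabolism and sensing were taken as 6 related lists. These lists were chosen with earlier results of these data known, so their counts describe the lists and are no independent test. Their counts are to be read against all tested genes, of which 17.3% were called higher and 21.6% lower in females and 14.4% higher and 17.4% lower in males. Of the 23 tested enzymes of serine, glycine, proline, glutamine and one-carbon metabolism (25 listed), 15 were higher and 1 lower in females (median log2 fold change 1.22), and 7 were higher and 3 lower in males (median 0.47), the lower counts being no larger than the shares of all tested genes. Tdh, threonine dehydrogenase, rose in both sexes (3.74 in females and 2.79 in males), as did Mthfd1, a folate enzyme (3.30 and 2.32), while Shmt2, which makes glycine in mitochondria, rose in females (2.95). Phgdh, the entry enzyme of serine synthesis, was 1.45 and 2.08 FPKM in female controls and 6.71 and 7.09 FPKM in female mutants (1.52). In males Phgdh was 145 and 168 FPKM in controls and 37.9 and 37.5 FPKM in mutants (-2.02, limma adjusted p = 0.0023), so that it rose in females and fell in males; Phgdh was chosen after its values were seen.

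The amino acid response, driven by the transcription factor ATF4, had 5 genes higher and 1 lower of 12 tested in females (19 listed, median 0.62), against 17.3% and 21.6% of all tested genes, and 3 higher and 3 lower of 15 tested in males (median -0.02), near the 14.4% and 17.4% of all tested genes. Ddit4, an inhibitor of mTORC1, rose in females (log2 fold change 3.77) and Trib3, a feedback inhibitor of ATF4, rose in females (1.63) and fell in males (-1.85). In males Atf4 itself rose, from 23.9 and 25.7 to 58.7 and 61.6 FPKM (1.24), while Asns, asparagine synthetase, fell from 65.8 and 64.4 to 28.2 and 25.8 FPKM (-1.24), a gene chosen after its values were seen. Of the 20 cytoplasmic aminoacyl-tRNA synthetases, which charge tRNAs, none was called in females and Rars alone was called in males (-1.25, median of the list -0.14). By adjusted p at any fold, 1 was lower and 5 higher in females (median 0.16), against 34.6% and 26.9% of all tested genes.

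Of the 32 genes of amino acid sensing by mTORC1, 9 were lower and 4 higher in females (median -0.45), and 6 were lower and 3 higher in males (median -0.31). These counts were near the shares of all tested genes, which were 21.6% lower and 17.3% higher in females and 17.4% and 14.4% in males. Gatsl3 (Castor1), the cytosolic arginine sensor, rose in both sexes (3.51 and 3.66), from 1.91 and 3.14 to 35.1 and 42.1 FPKM in females and from 3.06 and 3.83 to 51.1 and 58.9 FPKM in males. The transcript of an arginine sensor in the cytosol was therefore higher and that of Slc38a9, in the lysosome, lower in the same libraries. Depdc5, a subunit of the inhibitory complex GATOR1, fell in females (-2.11), and Rragd, a Rag GTPase, fell in males (-2.70).

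Cystine use and glutathione genes were higher in 7 of 11 tested in females (12 listed, median 1.34) and in 3 of 11 in males (median -0.20), with none called lower, against 17.3% and 14.4% of all tested genes called higher. They included the glutathione peroxidase Gpx1, with log2 fold changes of 3.65 and 2.63. Of 21 other amino acid carriers (Slc6a20a, Slc6a20b and carriers of other families), 4 of 11 tested were higher in females (median 0.48). All of them were mitochondrial carriers of the SLC25 family, among them the aspartate and glutamate carrier Slc25a13 (2.84). In males 1 of 13 was higher, again Slc25a13 (1.84), and 1 lower (median -0.17). The latter was Ctns, the lysosomal cystine exporter, which fell from 49.2 and 41.7 to 8.57 and 8.26 FPKM (-2.298).

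**Figure D4:**
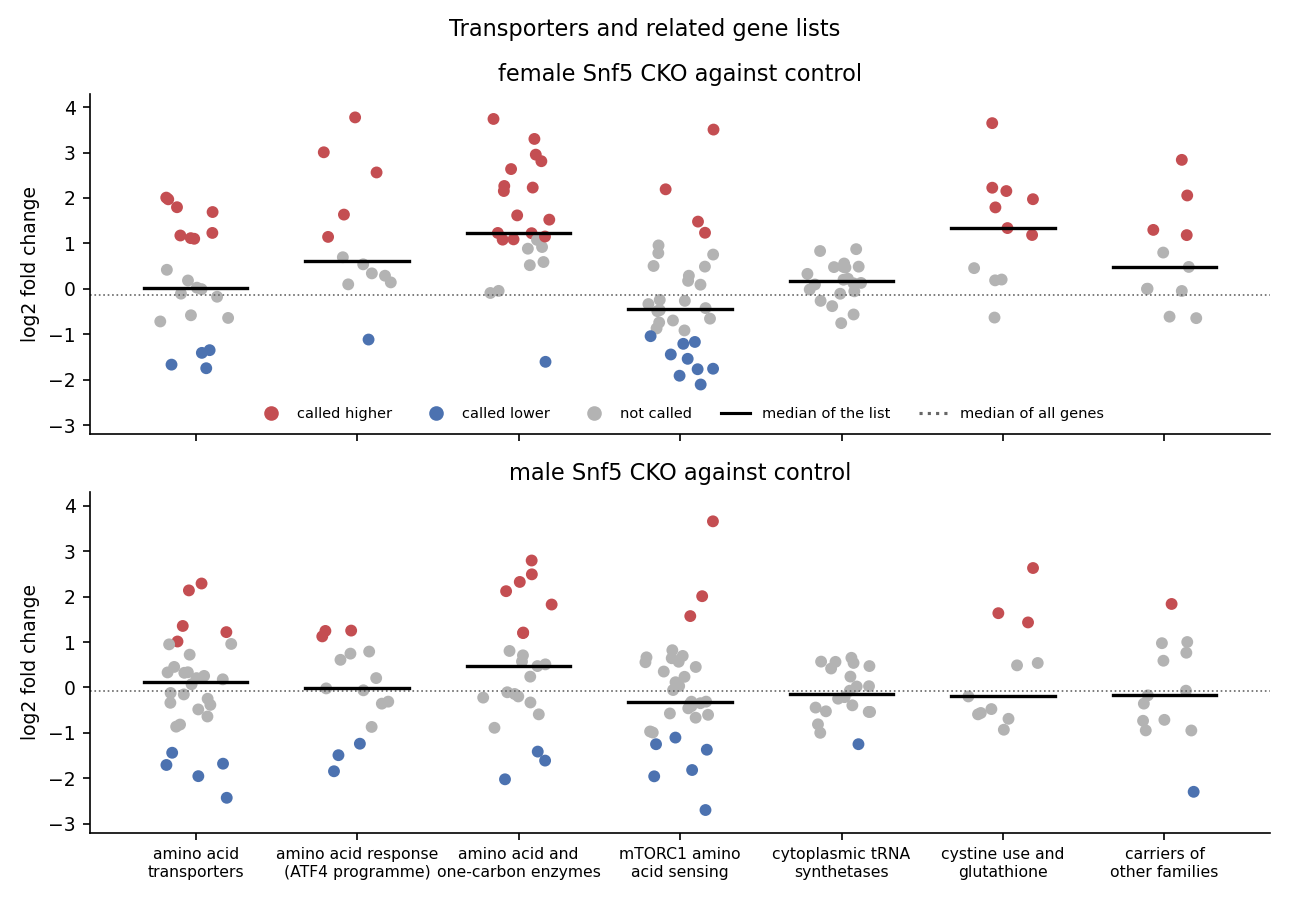
Log2 fold changes of the tested transporter genes and of the tested genes of 6 related lists, females above and males below. Points are genes, red when called higher, blue when called lower and grey when not called, black bars are list medians and the dotted line is the median of all tested genes. The median of the amino acid and one-carbon enzymes is 1.22 in females and 0.47 in males, and that of the transporter genes is 0.02 and 0.12.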

How the data were processed

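The 8 libraries were made by the authors from total RNA of sorted germ cells (SMART-Seq v4 and Nextera XT, which do not mark strand) and aligned to mm10. The submitters' processing notes name TopHat2 2.2.1 and Cuffdiff 2.1.1; the annotation version and the normalization between libraries are not given in the sources used here. The deposited values are FPKM per locus, 1 table per sex, with 16 columns of confidence bounds that were not used. Loci without a gene name held 5.46% to 42.1% of the FPKM of a library and were left out. Where a name had several loci, the locus with the highest mean was kept.

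Log2(FPKM + 1) was fitted with limma 3.58.1 (lmFit and eBayes with a trend) in R 4.3.3, within each table, for genes that averaged 1 FPKM or more, with Benjamini-Hochberg adjustment. Depth was unknown. Same-numbered libraries deviated together from their group means (r = 0.500 in females and 0.607 in males, over genes, which are not independent), and the labels' raw file names differ in style by number, so a replicate block was fitted as an alternative. Genes with values in the text were those called in at least 1 sex or with a group mean of at least 20 FPKM; those short of the fold by adjusted p alone were named as such, and up to 4 called genes with the largest changes were eligible from each related list. The exceptions are said to be chosen after their values were seen. Members and lists were chosen with earlier results of these data known. The fit was tested on simulated data. Figures were drawn with matplotlib 3.10.9. The values of 1 gene are not reported here.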

Additional observations from a re-analysis of the deposited data

Results flagged for a closer look

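In 5 of the 19 transporter genes tested in both sexes, every Snf5 CKO library lay on one side of its controls in females and on the opposite side in males. This count was near the 20.7% of all genes tested in both, so it does not set the transporter genes apart. The difference between the sexes was not tested, because the tables were normalized separately. The log2 fold changes were 1.69 in females and -2.43 in males for Slc38a4, -1.35 and 0.96 for Slc38a10, -1.67 and 0.45 for Slc7a6, -0.64 and 0.72 for Slc38a6, and 0.42 and -0.38 for Slc6a9, the glycine carrier. Slc38a4 was called in both sexes, Slc38a10 and Slc7a6 in females, and the others in neither. Slc38a6 was 2.26 and 1.87 FPKM in female controls, 0.979 and 0.946 FPKM in female mutants, 1.46 and 3.24 FPKM in male controls and 4.12 and 4.55 FPKM in male mutants. Slc6a9 stayed between 0.886 and 2.43 FPKM in the 8 libraries, and its locus overlapped Ccdc24 in both sexes.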

How the results depend on the processing

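Counts of called transporter genes moved mostly with the filter on low values. With a mean of at least 5 FPKM, 8 genes were tested in females and 12 in males, of which 3 were higher in females and 1 higher and 2 lower in males. With no filter 3 were higher in males. Leaving out a library gave 7 to 9 higher and 4 lower in females, and 4 to 8 higher and 4 to 6 lower in males, the 8 without male control replicate 1. Smarcb1 ranged from -2.78 to -2.19 in females and from -4.02 to -3.78 in males. Small male differences turned for Slc3a2 (-0.12 with a common sum over named loci) and Slc7a5 (0.0051 with median-of-ratios, and -0.44 to 0.13 over the fits without a library). Of the other values of named genes, 375 kept their direction and side of the threshold, 11 fell short of it and 7 passed it, as given above; the cause was not tested. The replicate block, in which same-numbered libraries are paired, changed no call, and Smarcb1 stayed at -2.48 in females and -3.90 in males. No value was given where a filter or a left-out library took a gene below the tested level. The median of all genes was -0.11 (females) and -0.26 (males) with a common sum, and 0.02 and 0.07 with median-of-ratios. Depth is unknown and the confidence bounds were not used, so the error of values under 1 FPKM was not calculated.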

Other observations

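Slc7a14, an orphan relative of the cationic carriers, differed more by replicate number than by genotype and was chosen after its values were seen. It was 1.21 and 4.27 FPKM in female controls, 1.44 and 5.16 FPKM in female Snf5 CKO libraries, 1.004 and 3.86 FPKM in male controls and 0.683 and 3.88 FPKM in male Snf5 CKO libraries. Replicate 2 was the higher library in each of the 4 groups. The share of FPKM in loci without a gene name was also higher in replicate 2 in 3 of the 4 groups (9.94% and 28.2% in female Snf5 CKO, 6.56% and 42.1% in male control, 5.46% and 35.4% in male Snf5 CKO), and was 36.7% and 35.3% in female controls.

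Slc6a14, a carrier of neutral and cationic amino acids, was higher in the mutants of both sexes below the level at which genes were tested. It was 0.0276 and 0.0658 FPKM in female controls and 0.355 and 0.398 FPKM in female mutants, and 0.0517 and 0.0956 FPKM in male controls against 0.717 and 0.342 FPKM in male mutants. Slc1a2, a glutamate carrier, was 0.525 and 0.689 FPKM in male controls and 0.00318 and 0.0411 FPKM in male mutants. Slc6a14 and Slc1a2 were chosen after their values were seen and were not tested.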
